A study of Mus musculus with 9 samples.

Results

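The MHC class II antigen presentation genes described here are H2-Aa, H2-Ab1, H2-Eb1, H2-Ea, H2-DMa, H2-DMb1, H2-Oa, H2-Ob, Cd74 and Ciita, which the array still lists under its older name C2ta. The genes were picked for their role with earlier results of these data known, and their probes by name, as every non-control probe that carries the name of a member. All 10 genes had a probe, and together they had 15 of the 41174 probes on the array. RNA was measured in whole mammary gland number 4 on lactation day 2 from 4 wild type (WT) and 5 hNAG-1 dams, with 1 Agilent array per mouse. Both groups carried the strain label C57BL/7, which may stand for C57BL/6, and the hNAG-1 mice carried a transgene for ubiquitous expression of human NAG-1 (GDF15), a secreted protein of the TGFβ superfamily. Per the gene expression methods the dams were sampled after litter number 4 and each gland was pulverized on its own. The animal methods name 1 transgenic line as the main one and say that lines were combined in some experiments, and they do not say which applied to these arrays. Whether the lymph node that lies in this gland was removed is not stated in the sources used here. The level of the human transgene was not used here to check the genotype labels.

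MHC class II molecules are cell surface dimers of an α and a β chain that show peptides from endosomes to CD4 T cells. B cells, dendritic cells and activated macrophages carry most of them, and many other cells make them after interferon γ. In the mouse H2-Aa and H2-Ab1 encode the chains of I-A, and H2-Ea and H2-Eb1 those of I-E. Cd74, the invariant chain, fills the peptide groove of newly made dimers, H2-DM (H2-DMa and H2-DMb1) exchanges its remnant for peptide, and H2-O (H2-Oa and H2-Ob), best known from B cells, restrains H2-DM. Ciita is the coactivator that switches these genes on, through factors bound to the X and Y boxes in their promoters.

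The promoter letters that such factors read are shown for the members held by the RefSeq promoter table of build GRCm38.p6, which covered H2-Oa, H2-DMa, H2-DMb1, H2-Ob, H2-Aa and H2-Eb1. The motifs searched were GCAAC, the core of the X1 box, and ATTGG, the core of the Y box, on both strands of the 250 bases before and 50 bases after each start site. Each stretch is written 5′ to 3′ on the strand of its gene, with the matches in capitals.
H2-Aa (chr17:34287859-34287919, minus strand): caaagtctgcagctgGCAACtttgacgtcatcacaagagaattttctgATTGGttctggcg
H2-Eb1 (chr17:34305761-34305820, plus strand): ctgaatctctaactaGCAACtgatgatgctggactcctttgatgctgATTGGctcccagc
H2-Oa (chr17:34092288-34092348, plus strand): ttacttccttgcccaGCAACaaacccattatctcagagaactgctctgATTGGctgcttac
H2-Ob (chr17:34238803-34238860, plus strand): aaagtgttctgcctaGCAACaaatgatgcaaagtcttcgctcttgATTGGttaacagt
H2-DMb1 (chr17:34153075-34153142, plus strand): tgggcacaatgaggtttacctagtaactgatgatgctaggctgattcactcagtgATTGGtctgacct
In H2-Aa and H2-Oa 28 bases lay between the matches, in H2-Eb1 27 and in H2-Ob 25, and in all 4 the pair read along the strand of the gene. A GCAAC followed by ATTGG on the same strand with 10 to 40 bases between was held by the promoters of 4 of the 6 members and by 1.43% of the 32851 promoters in the table. Alone the motifs were common: ATTGG was in 37.4% and GCAAC in 35.2% of all promoters. H2-DMb1 held ATTGG and no GCAAC. H2-DMa held both motifs in its promoters but not as a pair of this spacing. These matches are a description of letters, and the arrays carry no measurement of what was bound there.

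Levels are given as scaled intensity, the background-subtracted fluorescence of a probe divided by the 75th percentile of its array and brought back to a common scale. Probes bind their targets with different strength, so levels were compared between mice and never between probes. The mice are named WT 1 to WT 4 and hNAG-1 1 to hNAG-1 5 after their labels. No member probe was saturated on any array, and 13 of the 15 were well above background on all 9.

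H2-Ab1, H2-Aa and H2-Eb1, chains of the peptide-binding dimers, were measured on every array, and WT 2 stood above all other mice for each of these. H2-Ab1, the I-A β chain, was 10057, 32260, 12947 and 13215 in WT 1 to WT 4, and 12007, 13077, 12945, 19114 and 10285 in hNAG-1 1 to hNAG-1 5, by its brightest probe. WT 2 was 2.49 times the median of the other 8 mice, hNAG-1 4 was second, and WT 1 was lowest. H2-Aa, the I-A α chain, was 1634, 6790, 2023 and 2113 in the WT mice and 2030, 2065, 2000, 3853 and 1852 in the hNAG-1 mice. It had the same order at both ends, with WT 2 at 3.35 times the median of the other 8 mice. H2-Eb1, the I-E β chain, was 4204, 13390, 4635 and 4733 in the WT mice and 5802, 5160, 4626, 7438 and 3823 in the hNAG-1 mice. WT 2 and hNAG-1 4 were again highest, while hNAG-1 5 rather than WT 1 was lowest. In all 3 genes the genotypes overlapped. The 6 mice other than WT 1, WT 2 and hNAG-1 4 lay between 1852 and 2113 for H2-Aa, between 10285 and 13215 for H2-Ab1 and, more widely, between 3823 and 5802 for H2-Eb1.

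The 4 probes of H2-Ab1 moved together over the 9 mice, with r between 0.951 and 0.997 for their pairs. A pair of them is shown because the probes overlap and carry different letters at the same place. The letters that differ are in capitals.
A_51_P215242 (build mm7, chr17:32342603-32342662): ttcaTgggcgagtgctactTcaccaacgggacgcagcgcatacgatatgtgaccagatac
A_52_P570717 (not placed by the array file): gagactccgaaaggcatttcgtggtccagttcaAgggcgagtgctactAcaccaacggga
The first 31 bases of A_51_P215242 overlap A_52_P570717 and 29 of them are identical. Counted from 1 at the 5′ end of A_51_P215242, the differences are T5A and T20A. Both probes were well above background on all 9 arrays. A_51_P215242 gave 789, 4155, 1430 and 1515 in the WT mice and 1197, 1614, 1577, 2338 and 1346 in the hNAG-1 mice. A_52_P570717 gave 379, 1874, 677 and 655 in the WT mice and 516, 728, 708, 1020 and 616 in the hNAG-1 mice. Both placed WT 2 first, hNAG-1 4 second and WT 1 last, as did the other probes of the gene. The second H2-Aa probe did the same, at an r of 0.993 with the first.

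H2-Ea, the I-E α chain, was the exception. Its only probe lay at chr17:32421735-32421794 on the minus strand of build mm7.
H2-Ea A_51_P222741: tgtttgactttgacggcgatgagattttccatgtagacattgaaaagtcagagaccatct
It read 6.18, 3.86, 5.84 and 5.48 in the WT mice and 5.07, 7.11, 5.47, 8.49 and 6.55 in the hNAG-1 mice, and no array of the 9 had it well above background. Values at background give no order of mice. Mice of the H2-b haplotype, C57BL/6 among them, are known for a deletion that silences H2-Ea, and the RefSeq gene table of build GRCm38.p6 lists the gene as a transcribed pseudogene. Whether these mice carry that haplotype was not tested. Both genotypes were below background, so no genotype difference is given for H2-Ea alone.

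Cd74, the invariant chain, was 9573, 33079, 12682 and 13150 in the WT mice and 12702, 13910, 10955, 18185 and 10408 in the hNAG-1 mice. WT 2 was 2.61 times the median of the other 8 mice, hNAG-1 4 was second and WT 1 lowest, and the genotypes overlapped. H2-DMa, the α chain of the peptide exchange factor, was 324, 1233, 483 and 449 in the WT mice and 368, 413, 397, 576 and 428 in the hNAG-1 mice. H2-DMb1, its β chain, was 2832, 8628, 3337 and 3214 in the WT mice and 3072, 2881, 2548, 4162 and 2418 in the hNAG-1 mice. WT 2 was highest for both, at 2.93 and 2.90 times the median of the other 8 mice, and hNAG-1 4 second. H2-DMb1 has a near copy, H2-DMb2, and although their probes share no stretch of 20 or more bases at 80% identity, a signal from both genes in 1 probe was not tested. H2-DMb2 itself gave 334, 1971, 397 and 369 in the WT mice and 345, 502, 361, 708 and 366 in the hNAG-1 mice, again highest in WT 2 and next in hNAG-1 4.

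**Figure D1:**
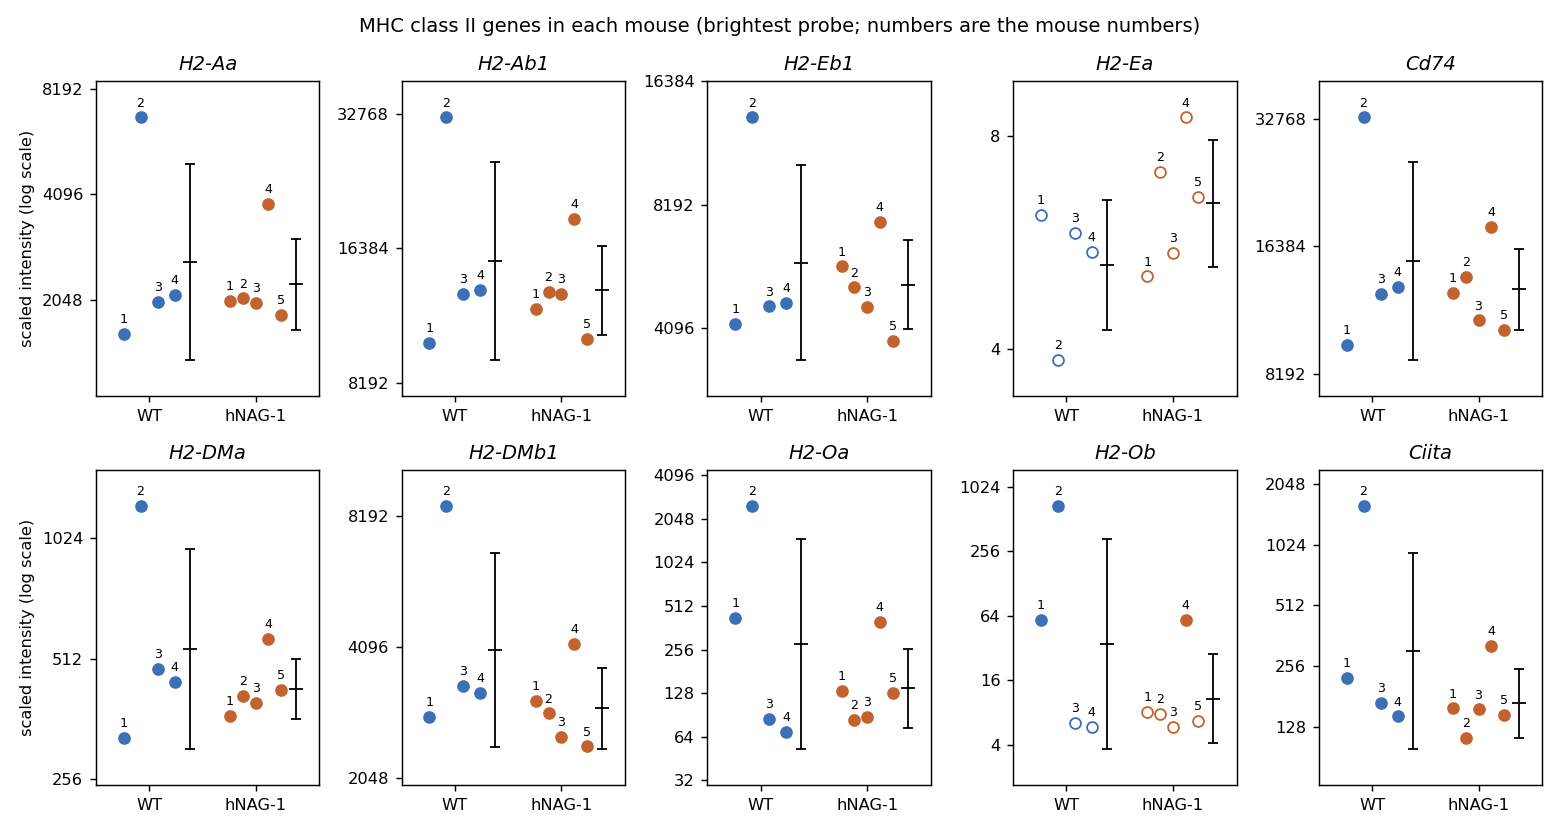
Scaled intensity (log scale) of the brightest probe of each of the 10 genes in every mouse. Each point is 1 mouse with its number, open points were not well above background, and the bars give the mean ± SD of the log2 values. WT 2 is the highest point for every gene but H2-Ea, and WT 1 is low for H2-Ab1 (10057) but second highest for H2-Oa (423).

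H2-Oa, H2-Ob and Ciita had a wider range and a different order of mice. The probes of H2-Oa and H2-Ob are shown because the signal of H2-Ob was present in 3 mice and at background in the other 6.
H2-Oa A_51_P449325 (build mm7, chr17:32174944-32175003): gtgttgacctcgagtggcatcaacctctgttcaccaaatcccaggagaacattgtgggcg
H2-Ob A_52_P679470 (build mm7, chr17:32321710-32321941): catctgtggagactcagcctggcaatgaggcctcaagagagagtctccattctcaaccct
The H2-Ob probe has 60 bases but its placement spans 232 in the genome. H2-Oa, the α chain of the H2-DM inhibitor, was 423, 2507, 84.9 and 69.5 in the WT mice and 133, 84.1, 88.3, 398 and 129 in the hNAG-1 mice. WT 2 was 23.1 times the median of the other 8 mice. WT 1 and hNAG-1 4 came next at similar levels, and the other 6 mice lay between 69.5 and 133. The second H2-Oa probe, A_51_P449329, gave the same 3 mice, with 1869 in WT 2, 355 in WT 1, 300.0 in hNAG-1 4 and 67.4 to 145 in the rest.

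H2-Ob, the β chain of the inhibitor, was 59.1, 680 and 58.6 in WT 1, WT 2 and hNAG-1 4, the only mice in which it was well above background. In the other 6 mice it read between 5.81 and 8.05. Against the lowest intensity well above background on those 6 arrays, 22.9 on average and 19.5 to 27.4 by array, H2-Ob was at least 29.7-fold higher than the mean of those mice in WT 2, at least 2.58-fold in WT 1 and at least 2.56-fold in hNAG-1 4. Against the highest of these 6 limits the bounds were 24.9, 2.16 and 2.14. Ciita was 224, 1593, 169 and 144 in the WT mice and 158, 113, 156, 324 and 147 in the hNAG-1 mice. WT 2 was 10.1 times the median of the other 8 mice, and hNAG-1 4 and WT 1 followed.

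WT 1 therefore ranked 9th of 9 for H2-Aa, H2-Ab1, H2-DMa and Cd74, but 2nd for H2-Oa and H2-Ob and 3rd for Ciita. Over the 9 mice, r between pairs of H2-Aa, H2-Ab1, H2-Eb1, Cd74, H2-DMa and H2-DMb1 was 0.900 to 0.987, with a median of 0.958 over 15 pairs. H2-Oa with Ciita had r = 0.945, and H2-Ob is left out here since it was at background in 6 mice. Between the 6 genes and these it was 0.737 to 0.943 over 12 pairs. Without WT 2 the median r was 0.829 within the 6 genes and 0.343 between them and H2-Oa or Ciita, over 8 mice. Without WT 2 and hNAG-1 4 these medians were 0.612 and -0.65, over 7 mice. H2-Oa with Ciita then had 0.776. These correlations share the arrays and their scaling and are a description without a test.

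No member passed the test of a genotype difference. All of the 15 probes overlapped between WT and hNAG-1 mice, where 1.38% of all probes did not overlap. By limma, 0 of 15 member probes had an unadjusted p under 0.05, against 5.62% of all probes (1.2% higher and 4.42% lower in hNAG-1), and 0 had an adjusted p under 0.05, against 0.00243% of all probes. The 14 probes detected on at least 1 array had a lower mean log2 level in hNAG-1 mice. The median log2 fold change of hNAG-1 over WT over the 15 probes, H2-Ea included, was -0.23, where the median over all probes was -0.01. Over the 14 detected probes it was -0.26. Scaling each array to its median instead adds the same amount to every probe and gave -0.01 for the 15 probes and 0.20 for all probes.

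The mean scaled intensity of H2-Ab1 was 17120 ± 10194 (SD, n = 4) among WT mice against 13485 ± 3338 (SD, n = 5) among hNAG-1 mice, a log2 fold change of -0.22 ± 0.34 (SE, limma, adjusted p = 0.829; exact permutation test, two-sided, p = 0.619). For Cd74 the means were 17121 ± 10757 (SD, n = 4) for WT mice against 13232 ± 3100 (SD, n = 5) for hNAG-1 mice. Its log2 fold change was -0.23 ± 0.35 (SE, limma, adjusted p = 0.830). The SD among the WT mice was the larger for both genes, but without WT 2 it was the smaller, at 1751 for H2-Ab1 and 1944 for Cd74 (n = 3). For H2-Aa, H2-Eb1, H2-DMa and H2-DMb1 the log2 fold changes of the brightest probes were -0.21, -0.18, -0.33 and -0.44. H2-Oa fell outside that range, at a log2 fold change of -1.03 ± 1.01 by its brightest probe and -1.33 ± 0.85 by the other (SE, limma, adjusted p = 0.728 and 0.654). The latter had the lowest unadjusted p among the members, at 0.152 in limma. Ciita had a log2 fold change of -0.86 ± 0.67 (SE, limma, adjusted p = 0.657). For H2-Ob the fitted value of -1.71 ± 1.38 rests on 6 arrays at background. By the exact permutation test the brightest probes of the 9 detected members gave p from 0.278 to 0.746, where the smallest p that 4 against 5 mice allow is 0.00794. The 95% confidence interval for H2-Ab1 ran from -0.97 to 0.54.

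**Figure D2:**
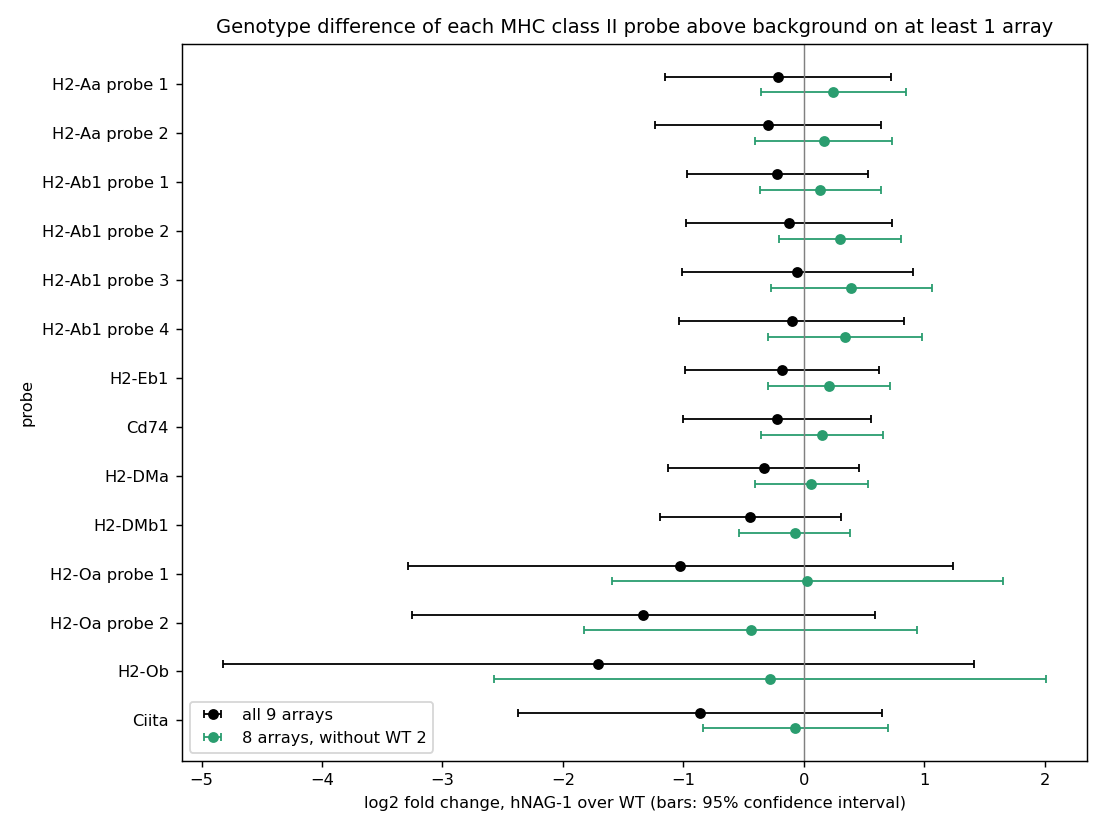
Log2 fold change of hNAG-1 over WT by limma for each of the 14 member probes above background on at least 1 array, with 95% confidence intervals, from all 9 arrays (black) and from the 8 arrays without WT 2 (green). Every interval crosses 0, and the value for the brightest H2-Aa probe moves from -0.21 to 0.25 when WT 2 is left out.

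The direction of most of these values changed when WT 2 was left out. Without WT 2 the median log2 fold change over the member probes was 0.14, where that over all probes was -0.04, and 10 of the 14 detected probes lay higher in hNAG-1 mice. None had an unadjusted p under 0.05, against 4.31% of all probes. H2-Ab1 was then 12073 ± 1751 (SD, n = 3) in WT mice against the same 13485 in hNAG-1 mice, with a log2 fold change of 0.14 ± 0.22 (SE, limma, adjusted p = 0.894). H2-Aa was at 0.25 ± 0.26, Cd74 at 0.15 ± 0.22 and H2-Oa at 0.03 ± 0.71 (SE, limma, adjusted p from 0.892 to 0.995). H2-DMb1, the second H2-Oa probe, H2-Ob and Ciita kept a value below 0 but moved toward it. They were at -0.08 ± 0.20, -0.44 ± 0.60, -0.28 ± 1.00 and -0.07 ± 0.33 (SE, limma), against -0.44, -1.33, -1.71 and -0.86 with all 9 arrays. With WT 2 and hNAG-1 4 both left out, the median over the member probes was 0.00 over 7 mice.

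The arrays lay on 3 slides. WT 1 was alone on the first, hNAG-1 1 to hNAG-1 4 filled the second, and WT 2, WT 3, WT 4 and hNAG-1 5 shared the third, so only the third slide holds both genotypes. Within it, and equally with slide as a fixed block, the median log2 fold change of the member probes was -0.76 and that of all probes was 0.19. This value sets hNAG-1 5 alone against 3 WT mice that include WT 2. On that slide hNAG-1 5 also lay below WT 3 and WT 4 for H2-Ab1, at 10285 against 12947 and 13215. The same held for Cd74, at 10408 against 12682 and 13150. For H2-Oa it lay above them, at 129 against 84.9 and 69.5. With the block, H2-Ab1 was at -0.78 ± 0.54 and Cd74 at -0.76 ± 0.56 (SE, limma, adjusted p = 0.920 for both).

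The levels of other cell types differed between the same mice. In a piece of whole gland, fewer cells of a type and less RNA per cell cannot be told apart, and the part of any cell type in the values above was not tested. Lists of marker genes were averaged per mouse, as the mean log2 difference of each gene from its median over the 9 mice. List genes with an unadjusted p under 0.05 by limma are to be read beside the 5.62% of all probes with such a p. Markers of mammary epithelium, the labelled tissue, were well above background in every mouse, and after scaling all 11 of them were lowest in WT 2. Their list stood at -0.58 in WT 2 and between -0.07 and 0.24 in the other 8 mice. Their summed scaled intensity ranged from 1174823 to 2149338 in WT and from 1527302 to 2238011 in hNAG-1 mice. The place of WT 2 depends on the scaling, since the 75th percentile that divides each array was highest there, at 1133 against 509 to 915 on the other 8 arrays.

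B cell markers were highest in WT 2 for 13 of 14 genes. The list stood at 3.58 in WT 2, 1.16 in WT 1, 1.14 in hNAG-1 4 and 0.57 in hNAG-1 5, and between -0.82 and -0.15 in the other 5 mice. Its summed scaled intensity ranged from 4372 to 58402 in WT and from 3881 to 13033 in hNAG-1 mice. The first 3 of these mice are the ones in which H2-Ob was detected. Pax5, the B cell lineage factor, was 95.7, 705 and 59.8 in WT 1, WT 2 and hNAG-1 4 and between 5.11 and 14.9 in the other 6 mice, and it was well above background on 3 arrays. One gene of the list had an unadjusted p under 0.05, and none passed once p was adjusted over all probes. That gene was Cr2, a complement receptor of B cells and follicular dendritic cells, at a log2 fold change of -0.75 (limma, adjusted p = 0.654). It ran differently from the list, as its values of 145 to 172 in WT mice did not set WT 2 apart, and with the slide as a block its direction turned, to 0.22. The median log2 fold change of the list was -1.18, and -0.36 without WT 2.

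T cell markers followed the B cell list, with 3.1 in WT 2, 1.11 in WT 1 and 0.64 in hNAG-1 4. Of 11 genes measured, 9 were highest in WT 2. The summed scaled intensity was 2836 to 27663 in WT and 2608 to 4494 in hNAG-1 mice. Cd2, an adhesion receptor, had a log2 fold change of -1.50 (limma, adjusted p = 0.654) and was the only gene of the list with an unadjusted p under 0.05. Its fold change was -0.93 with the slide as a block and -0.78 without WT 2. Cd8a had the lowest fold change of the list, with a mean of 880 in WT and 149 in hNAG-1 mice and with WT 2 at 2757 (limma, adjusted p = 0.654).

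Macrophage markers ran in another order, with hNAG-1 4 first. The list stood at 1.29 in hNAG-1 4, 0.82 in WT 2, 0.24 and 0.11 in WT 3 and WT 4, and -0.60 in WT 1, the lowest mouse. Of 14 genes, all well above background on every array, 8 were highest in hNAG-1 4 and 3 in WT 2. Their summed scaled intensity was 90861 to 245422 in WT and 82540 to 286305 in hNAG-1 mice. None had an unadjusted p under 0.05. The scavenger receptor Marco had the widest range of the list, with 3496, 62245, 2540 and 546 in the WT mice and 2170, 316, 868, 29476 and 631 in the hNAG-1 mice. Fcgr1, a high-affinity IgG receptor, was 5214 in hNAG-1 4 and at most 1865 in any other mouse. WT 1 was high for the B cell, T cell and dendritic cell lists and, at 0.24, the highest mouse for the epithelial list. It was the lowest mouse for the macrophage and adipocyte lists, at -0.60 and -1.05. Among the members WT 1 was high for H2-Oa and H2-Ob, lowest for H2-Ab1 and Cd74, 8th for H2-Eb1 and 7th for H2-DMb1. It was also alone on its slide, and a link between the lists and the members was not tested.

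**Figure D3:**
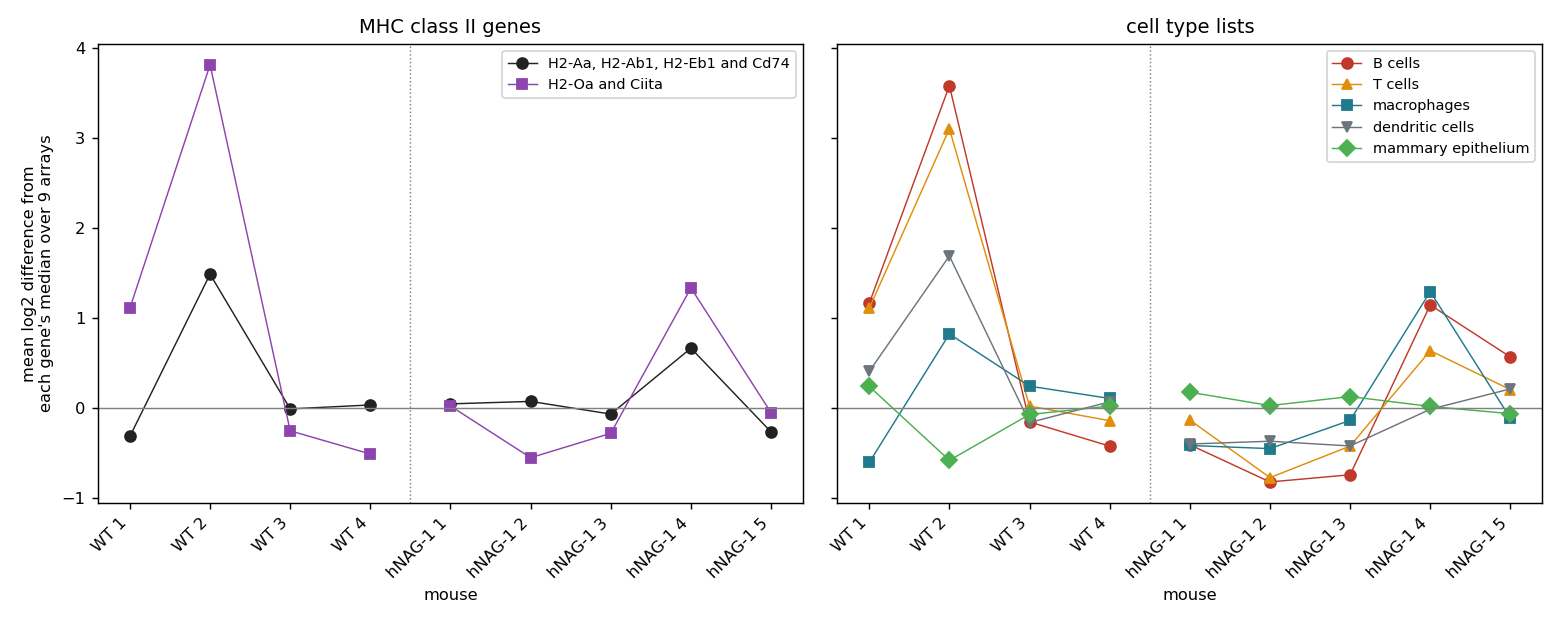
Mean log2 difference from each gene's median over 9 arrays, for each mouse, of 2 sets of MHC class II genes (left) and 5 cell type lists (right). Lines join mice of 1 genotype for legibility and stand for no order. In WT 1, H2-Oa and Ciita stand at 1.11, and H2-Aa, H2-Ab1, H2-Eb1 and Cd74 at -0.31. The lists stand there at 1.16 (B cells), 1.11 (T cells), 0.41 (dendritic cells), 0.24 (mammary epithelium) and -0.60 (macrophages).

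Dendritic cell markers were dim, with 4 of 12 genes well above background on every array and Ccl22 on none. Their summed scaled intensity was 1854 to 4559 in WT and 1626 to 2163 in hNAG-1 mice. Their list stood at 1.69 in WT 2, 0.41 in WT 1, 0.21 in hNAG-1 5, 0.07 in WT 4 and -0.01 in hNAG-1 4, and between -0.42 and -0.16 in the other 4 mice. Flt3, a receptor of dendritic cell precursors, had the lowest p of the list, with 121, 135, 65.1 and 72.7 in the WT mice and 47.2, 21.9, 25.1, 25.1 and 83.3 in the hNAG-1 mice (log2 fold change -1.41 ± 0.43, SE, limma, adjusted p = 0.654). It was well above background on 7 arrays, so this fold rests in part on arrays at background, and with the slide as a block it was -0.05. The chemokine Ccl17 had a log2 fold change of -0.94 (limma, adjusted p = 0.654), and these were the genes of the list with an unadjusted p under 0.05. With the slide as a block Ccl17 had -0.42. Ccr7, the homing receptor of migratory dendritic cells and naive T cells, had the lowest fold change of the list and was 1909 in WT 2, 258 in WT 1 and at most 113 elsewhere. The adipocyte list stood lowest in WT 1, at -1.05. Pck1, an enzyme of glyceroneogenesis, had a log2 fold change of -1.01 (limma, adjusted p = 0.654), or -0.33 with the slide as a block, and the list's only unadjusted p under 0.05, and Retn, the adipokine resistin, had the highest, at 1.00 (limma, adjusted p = 0.654). The summed scaled intensity of the adipocyte list was 460437 to 876280 in WT and 641539 to 783516 in hNAG-1 mice. Over the other lists the median log2 fold change was -1.28 for T cells, -0.59 for dendritic cells, -0.05 for macrophages, 0.13 for epithelium and 0.27 for adipocytes. Without WT 2 it was -0.41, -0.15, 0.19, -0.03 and 0.26. With the slide as a block it was -0.24 for dendritic cells, while that of macrophages lay further below 0 than over all arrays. The highest fold changes of their lists were those of Cd72 (B cells, 0.09), Itgax (dendritic cells, 0.09), Fcgr1 (macrophages, 0.25) and Lalba (epithelium, 0.35), and Cdh1 was the lowest of the epithelial list at 0.03. None of these had an unadjusted p under 0.05.

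The relation of Cd74 and H2-Ab1 to the cell type lists was measured over the 9 mice, as 12 relations. H2-Ab1 and the macrophage list had r = 0.775 (exact permutation p = 0.0184, adjusted 0.0935) and rho = 0.733 (exact permutation p = 0.0311, adjusted 0.373). Cd74 and the macrophage list had r = 0.726 and rho = 0.583 (exact permutation p = 0.0312 and 0.108). With the epithelial list r was -0.858 for Cd74 and -0.836 for H2-Ab1 (exact permutation p = 0.0212 and 0.0283, both adjusted 0.0935). Both turned positive with no scaling between arrays. For the B cell list r was 0.730 for Cd74 and 0.734 for H2-Ab1, but rho was only 0.050 and 0.067, and T and dendritic cell lists gave similar pairs of values. No relation passed 0.05 after adjustment over the 12.

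The relations with the macrophage, B cell and epithelial lists were weaker without the mice farthest from the median, a step that also narrows the range of values. Without the 2 farthest on each list's axis, r fell to 0.478 for H2-Ab1 and 0.300 for Cd74 with the macrophage list (without hNAG-1 4 and WT 2), to 0.427 for Cd74 and 0.425 for H2-Ab1 with the B cell list (without WT 2 and WT 1), and to -0.013 and 0.048 with the epithelial list (without WT 2 and WT 1). With the adipocyte list r went the other way, from 0.054 for Cd74 and 0.019 for H2-Ab1 over the 9 mice to -0.703 and -0.736 without WT 1 and WT 4 (exact permutation p = 0.0669 and 0.0502). Without WT 2 alone, r of H2-Ab1 was 0.858 with the macrophage list and 0.037 with the B cell list. When any 1 mouse was left out, r with the macrophage list stayed between 0.738 and 0.858 for H2-Ab1 and between 0.677 and 0.800 for Cd74.

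**Figure D4:**
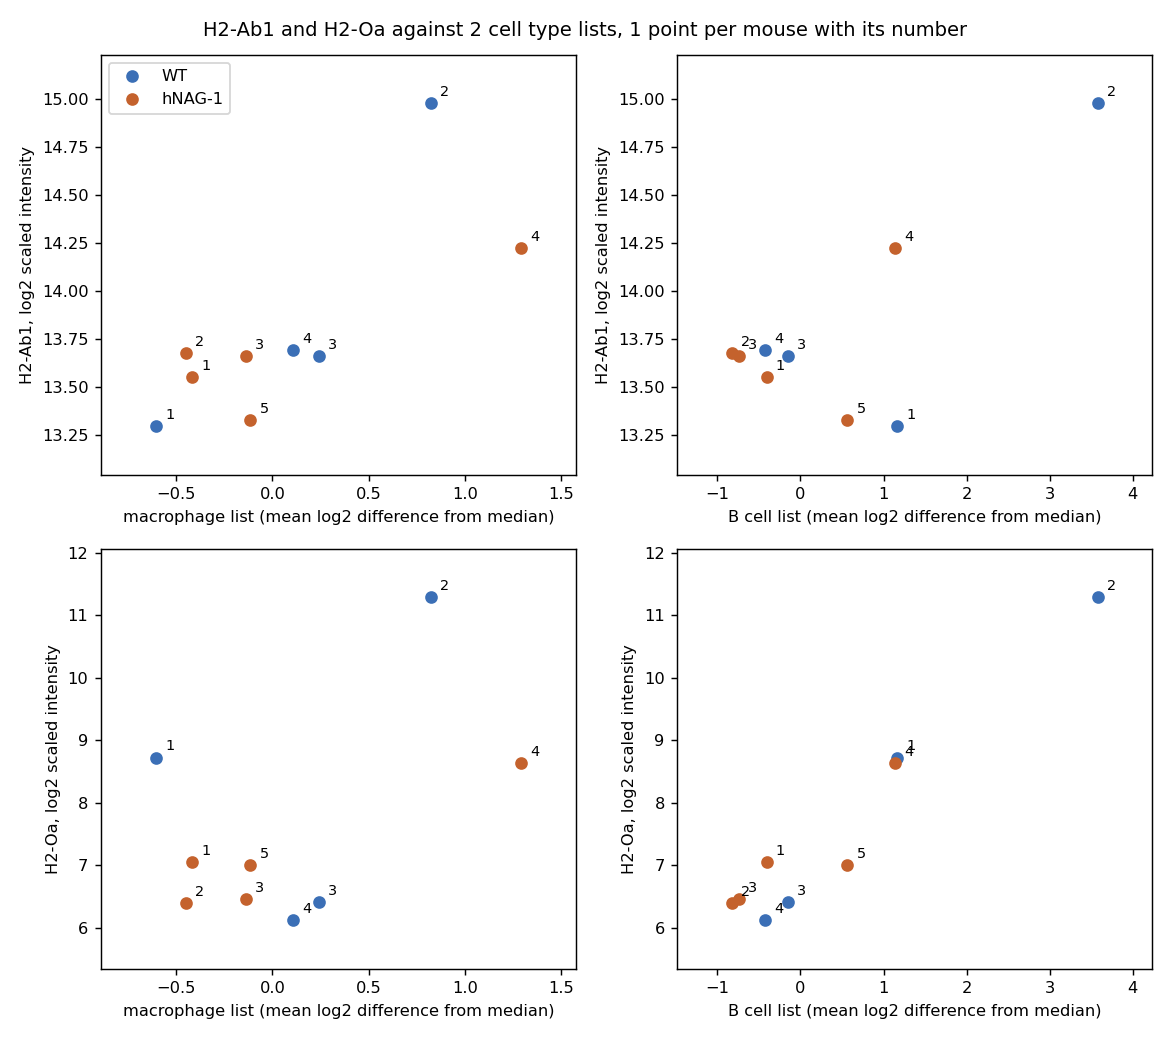
Log2 scaled intensity of H2-Ab1 (top) and H2-Oa (bottom) against the macrophage list (left) and the B cell list (right), as mean log2 difference from the median, with 1 numbered point per mouse (blue, WT; orange, hNAG-1). WT 1 lies lowest for H2-Ab1 at 10057 on the linear scale, and beside hNAG-1 4 for H2-Oa at 423 against 398.

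Genes that act on MHC class II transcription gave no call between the genotypes. The 17 genes cover the RFX, NF-Y and CREB factors of the X and Y boxes, the interferon γ pathway and the lineage factors Irf4, Irf8 and Sfpi1 (Spi1). Of these genes, 0 had an unadjusted p under 0.05 by limma, against 5.62% of all probes, and the median log2 fold change was -0.06. Their summed scaled intensity was 68440 to 93150 in WT and 71379 to 92809 in hNAG-1 mice. Irf8, a factor of dendritic cells, macrophages and B cells, had the lowest fold change, with 1206, 6525, 910 and 842 in the WT mice and 864, 877, 713, 1742 and 641 in the hNAG-1 mice. It repeated the order of WT 2 first and hNAG-1 4 second.

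Of 14 measured genes of antigen processing and MHC class II turnover, 1 had an unadjusted p under 0.05 by limma, against 5.62% of all probes. The list had a median log2 fold change of 0.01. Their summed scaled intensity was 350831 to 455672 in WT and 390091 to 483454 in hNAG-1 mice. That gene was Ctse, an endosomal aspartic protease, with 105, 151, 149 and 125 in the WT mice and 101, 79.8, 84.1, 68.1 and 119 in the hNAG-1 mice (log2 fold change -0.56 ± 0.20, SE, limma, adjusted p = 0.654). Its log2 fold change was -0.24 with the slide as a block. March1, the ubiquitin ligase that removes MHC class II from the surface, had the lowest fold change. It was 396, 1977, 378 and 290 in the WT mice and 290, 261, 230, 944 and 316 in the hNAG-1 mice, so WT 2 and hNAG-1 4 were again first and second. Tap1, a subunit of the peptide transporter of MHC class I, had the highest, at 0.35 (limma, adjusted p = 0.778).

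Among 12 genes of co-stimulation and CD4 T cell contact, Cd80, a ligand of CD28, had a log2 fold change of -1.13 ± 0.50 (SE, limma, adjusted p = 0.654) and the list's only unadjusted p under 0.05. As it was well above background on only 7 arrays, this fold rests in part on arrays at background, which give no order of mice. Unlike the detected members, Cd80 was not highest in WT 2. It read 83.0, 74.8, 46.1 and 89.3 in the WT mice and 32.1, 42.2, 21.6, 13.5 and 91.6 in the hNAG-1 mice. With the slide as a block its direction turned, to 0.44. Icos, an inducible T cell receptor, had the lowest fold change, with 910 in WT 2, 173 in WT 1, 113 in hNAG-1 4 and at most 59.4 elsewhere. The median log2 fold change of this list was -0.36, and -0.01 without WT 2, and its summed scaled intensity was 758 to 3895 in WT and 655 to 1499 in hNAG-1 mice. Cd40lg had the largest positive value but was not well above background on any array.

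The genes most like the members were sought among 14217 named genes that were well above background on all 9 arrays, by Pearson's r with the mean profile of H2-Aa, H2-Ab1, H2-Eb1 and Cd74 over the 9 mice. The 10 with the highest r lay between 0.963 and 0.981. They were 9130211I03Rik, 6720458D17Rik, Pip5k2a, Tnfsf13b, LOC545342, H2-DMb2, Map3k14, Glipr1, Plcb2 and Slc15a4, named as in the array file. Tnfsf13b, the B cell survival factor BAFF, was 145, 422, 169 and 150 in the WT mice and 176, 192, 159, 300.2 and 140 in the hNAG-1 mice. It had an r of 0.976 over 9 mice and 0.952 without WT 2. Map3k14, the kinase NIK of the alternative NF-κB pathway, had 0.965 and 0.879. Without WT 2 and hNAG-1 4 the r of the 10 genes was 0.211 to 0.781 over 7 mice. For Glipr1, Plcb2 and Slc15a4 it was at most 0.299, and for the other 7 it was at least 0.529.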

How the data were processed

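Per the file headers, the authors scanned 1-colour Cy3 arrays and deposited background-subtracted intensity values per spot from Agilent Feature Extraction 9.5.3.1, not scaled between arrays. The methods name no normalization. Control spots were left out, replicate spots were averaged per probe, and log2 was taken after division by the array's 75th percentile. Genotypes, taken from the labels, were compared over 41174 probes with limma 3.58.1 in R 4.3.3 (lmFit, eBayes, two-sided, no covariate, Benjamini-Hochberg over all probes). Single probes also had exact permutation tests over 126 splits. The members and lists were chosen with earlier results of these data known. Of 119 list entries outside the members, 115 had a probe, and the brightest was used. Named list genes were those with an unadjusted p under 0.05 and the highest and lowest fold change of each list. Results for some of these genes are not reported here. The fit was tested on simulated data. Alternatives were background correction, normalization, a dim-probe filter, outlier flags, slide, replicate block, the methods' test and leaving out mice. Leaving out WT 2 and hNAG-1 4 together was chosen after seeing the data. Replicates are separate mice. The number of arrays limits the precision. Probes well above background ranged from 59.1% on the hNAG-1 4 array to 75.6% on the WT 2 array. The WT 2 array also had the highest 75th percentile and the highest median intensity before scaling, at 1133 and 151. Whether this bears on the high member values of WT 2 was not tested. Probe coordinates are of build mm7. Sequences came from the array files and from RefSeq tables of build GRCm38.p6, and those of Cd74 and the promoters of H2-Ab1 and Ciita are not used here.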

Additional observations from a re-analysis of the deposited data

Results flagged for a closer look

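Single mice stood apart from their group in 5 of the 30 sets of values tested (15 probes in 2 genotypes) by Dixon's ratio on the log2 scale, the gap to the nearest mouse divided by the range, which chance exceeds in about 1 in 20 sets. Probes of 1 gene and genes of the same mice are not independent, so the count has no error of its own. Among the hNAG-1 mice, hNAG-1 4 stood above the others for both H2-Aa probes, at ratios of 0.852 and 0.903, and for H2-Ob at 0.859. Among the WT mice, WT 2 stood above the others for H2-Eb1 at 0.898 and for H2-DMb1 at 0.853. For H2-Ob the other 4 hNAG-1 mice were not above background.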

How the results depend on the processing

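The count of member probes with an unadjusted p under 0.05 was 0 under every alternative run, as was the count after adjustment. Of the 15 member fold changes, 10 reversed without WT 2, 7 without WT 2 and hNAG-1 4 together, 4 with each array scaled to its median, 2 without hNAG-1 1, and 1 each without hNAG-1 5 and with the replicate block. The deposited series table, the methods' test and the dim-probe filter leave the fold of a probe as it is by construction, and slide 3 alone gives the same fold as the fixed slide block. The median over the member probes, -0.23, ranged from -0.45 to 0.14 when 1 mouse was left out, and only leaving out WT 2 gave a value above 0. Ranges for the probes that reversed then were -0.44 to 0.25 and -0.54 to 0.16 (H2-Aa), -0.42 to 0.14, -0.39 to 0.30, -0.40 to 0.39 and -0.43 to 0.34 (H2-Ab1), -0.34 to 0.21 (H2-Eb1), -0.58 to 0.062 (H2-DMa), -1.70 to 0.027 (H2-Oa) and -0.45 to 0.15 (Cd74). Without WT 2 and hNAG-1 4 together, H2-Aa was at 0.055, the H2-Ab1 probes at 0.0049, 0.19, 0.25 and 0.21, H2-Eb1 at 0.086 and Cd74 at 0.028. With each array scaled to its median, 3 H2-Ab1 probes were at 0.089, 0.16 and 0.11 and H2-Eb1 at 0.032. Deviations of samples that share a replicate number had r from -0.348 to 0.332. Each number gives only 1 pair, so this does not settle whether the numbers pair the mice. With the replicate block the median over the member probes was -0.15, and 1 H2-Ab1 probe was at 0.00089.

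Several correlations with the lists also changed sign. When 1 mouse was left out, r of Cd74 ranged from -0.0036 to 0.882 with the B cell list, -0.156 to 0.897 with the T cell list, -0.335 to 0.843 with the dendritic cell list and -0.610 to 0.307 with the adipocyte list. For H2-Ab1 the ranges were -0.086 to 0.893 (T cells), -0.333 to 0.822 (dendritic cells) and -0.641 to 0.228 (adipocytes). Without WT 2 and hNAG-1 4 together, r with the B cell, dendritic cell and T cell lists was -0.797, -0.636 and -0.771 for Cd74 and -0.919, -0.746 and -0.811 for H2-Ab1, over 7 mice. With no scaling between arrays, r with the epithelial list was 0.241 for Cd74 and 0.293 for H2-Ab1. The causes of these changes were not tested. H2-Ea and, in 6 mice, H2-Ob were at background, so no difference could be measured there.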
